A study of Mus musculus with 80 samples.

Results

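Brain and heart were compared in the same 8 untreated wild-type mice on a C57BL/6 background, 4 females and 4 males fed standard chow. The comparison rests on the 8 arrays titled WT Brain and the 8 titled WT Heart, 16 of the 80 arrays of the series, paired by the animal number that each title carries. The whole series covers 5 organs of wild-type (WT) mice and of mice lacking serum carboxylesterase (Es-1 KO), a plasma esterase studied because it binds nerve agents. The other 24 WT arrays, 8 each of liver, kidney and lung, served as the background against which genes common to both organs were sought. Of the 8 paired animals 5 also gave the lung, and 3 further WT animals gave a lung only. The age of the mice and the part of each organ sampled are not given in the sources used here. Each array reports a log2 signal per probe set, on which 1 unit is a 2-fold difference. Values ran from 2.23 to 14.06 with a median of 4.07, and a signal near or under that median is dim. Levels of different genes come from different probes and were not set against each other.

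Brain and heart are the organs of this series whose main working cells fire action potentials. Neurons use sodium, calcium and potassium channels to carry signals to synapses, where calcium triggers vesicle fusion. Cardiomyocytes use related channels to start and time each contraction, in which calcium entering through L-type channels opens ryanodine receptors of the sarcoplasmic reticulum. The heart burns mainly fatty acids in its mitochondria, whereas the brain relies mainly on glucose.

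The labels were checked against cell type markers. The mean of 6 neuron genes lay between 11.65 and 11.83 in the brains and between 3.81 and 4.02 in the hearts. The mean of 5 ventricular cardiomyocyte genes lay between 13.20 and 13.32 in the hearts and between 3.54 and 3.98 in the brains, so no library contradicted its organ. The hearts also held atrial transcripts, with a 3-gene mean of 12.25 to 12.48. Some markers of non-muscle cells were higher in the hearts as well. Of 6 microglia and macrophage genes 2 were called in brain and 0 in heart. All 6 endothelial genes were called (mean 8.57 to 8.98 in heart, 4.89 to 5.37 in brain), as were 4 of 6 fibroblast genes (7.64 to 8.34 against 4.62 to 5.31) and all 3 fat genes (6.36 to 9.57 against 3.95 to 4.28). In such whole-organ RNA, fewer cells of a type and less RNA per cell cannot be told apart.

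Some libraries stood apart. In the heart of male 903 the mean of 7 hepatocyte genes was 10.37, against 3.85 to 5.94 in the other hearts, and 181 genes lay more than 1 log2 unit above every other heart. In the brain of female 1264 the mean of 6 skeletal muscle genes was 6.75, against 3.20 to 3.65 in the other brains, with Myh4, the heavy chain of fast muscle, at 8.0. Female 876 had the lowest blood marker mean in both organs, 5.78 in brain and 7.90 in heart. Brain 936 had the highest hepatocyte mean of the brains (6.42). Ttr, which the choroid plexus also makes, is on that list and lay between 11.27 and 12.96 over all the brains. Apoa1, also on it, was at 5.54 in brain 936 against a median of 3.74 in the other brains. The source of this signal was not tested. Gene counts without 903 or 1264 are given beside the results, and the range of counts with any 1 animal left out is given near the end.

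**Figure D1:**
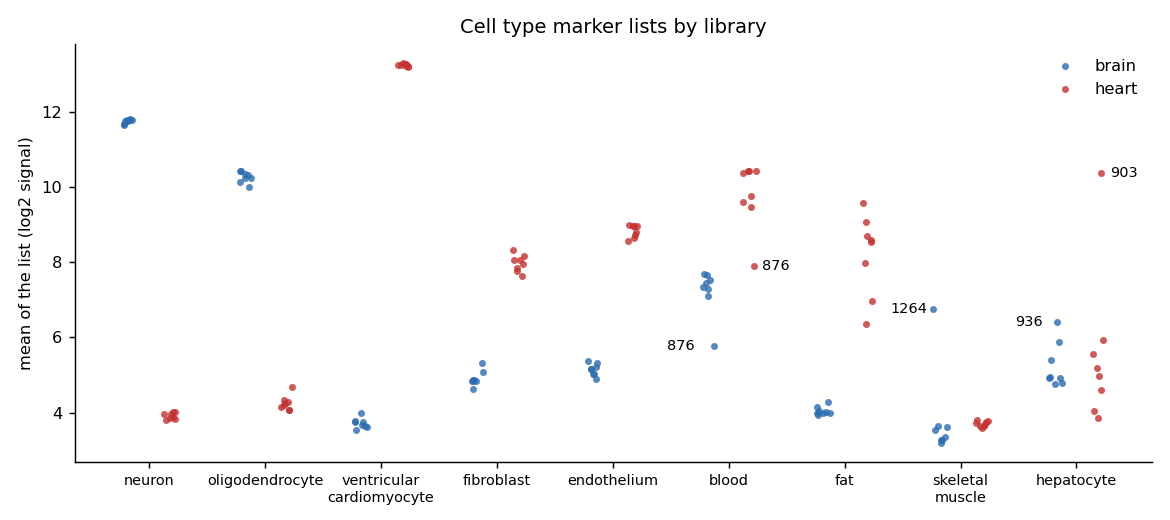
Mean log2 signal of 9 cell type marker lists in each of the 8 brain (blue) and 8 heart (red) libraries of WT mice. Each point is 1 library and numbers mark the animals that stood apart. The neuron and ventricular cardiomyocyte lists separate the organs completely, heart 903 stands at 10.37 for hepatocyte genes, and brain 1264 at 6.75 for skeletal muscle genes.

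The first question was how many genes divide the organs. Of 17097 genes, 2744 (16%) were called higher in brain and 2822 (16.5%) higher in heart, where a call needs a Benjamini-Hochberg adjusted p under 0.05 in limma with the animal as a block and a difference of at least 1 log2 unit. The median difference, brain minus heart, over all genes was -0.11. At a stricter limit, 588 genes were at least 16-fold higher in brain and 282 in heart. For 2683 of the brain calls and 2781 of the heart calls the groups did not overlap, and in 2722 and 2811 all 8 animals agreed in sign. The calls were made on the same arrays, so these counts largely follow from the rule and are no separate support. They were not taken over all genes. In 1053 brain calls the heart mean was under the overall median signal, and in 556 heart calls the brain mean was, so the differences of such genes are set against dim values that were not shown to be above background, and their folds and order by size are not exact. Without animal 903 the counts were 2739 and 2847, and without 1264 they were 2763 and 2806.

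The largest difference on the brain side was that of Snap25, a protein of the vesicle fusion complex. It ranged in brain from 12.27 through a median of 12.46 to 12.70 and in heart from 2.87 through 3.11 to 3.33. Every brain thus lay far above every heart, a difference of 9.36 (SE 0.09, adjusted p = 1.97e-15, n = 8 pairs). It was followed by Syt1, the calcium sensor of transmitter release (8.77), the neurofilament chain Nefl (8.62), the axonal motor Kif5a (8.6) and Aldoc, the brain form of aldolase (8.56). Gad1, which makes GABA (8.31), and Mbp, the myelin basic protein (8.08), were also among the leading 12.

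The largest difference on the heart side was that of Actc1, cardiac actin. It ranged in heart from 13.24 through 13.47 to 13.57 and in brain from 3.12 through 3.32 to 4.24. The organs were separated by -10.04 (SE 0.12, adjusted p = 4.97e-15, n = 8 pairs). Next came Tnni3, cardiac troponin I (-9.96), Myl2, the ventricular regulatory light chain (-9.60), Nppa, the precursor of atrial natriuretic peptide (-9.54), and Mb, the oxygen store myoglobin (-9.39). The brain signal of Mb was between 3.63 and 7.15, and without 1264, the animal with muscle markers in its brain library, the difference was -9.79. Ckmt2, the mitochondrial creatine kinase of muscle (-9.36), and Fabp4, a fatty acid carrier of fat cells and capillaries (-9.09), were also among the leading 12. Fat and endothelial markers were higher in the hearts too, and their part in Fabp4 was not tested.

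**Figure D2:**
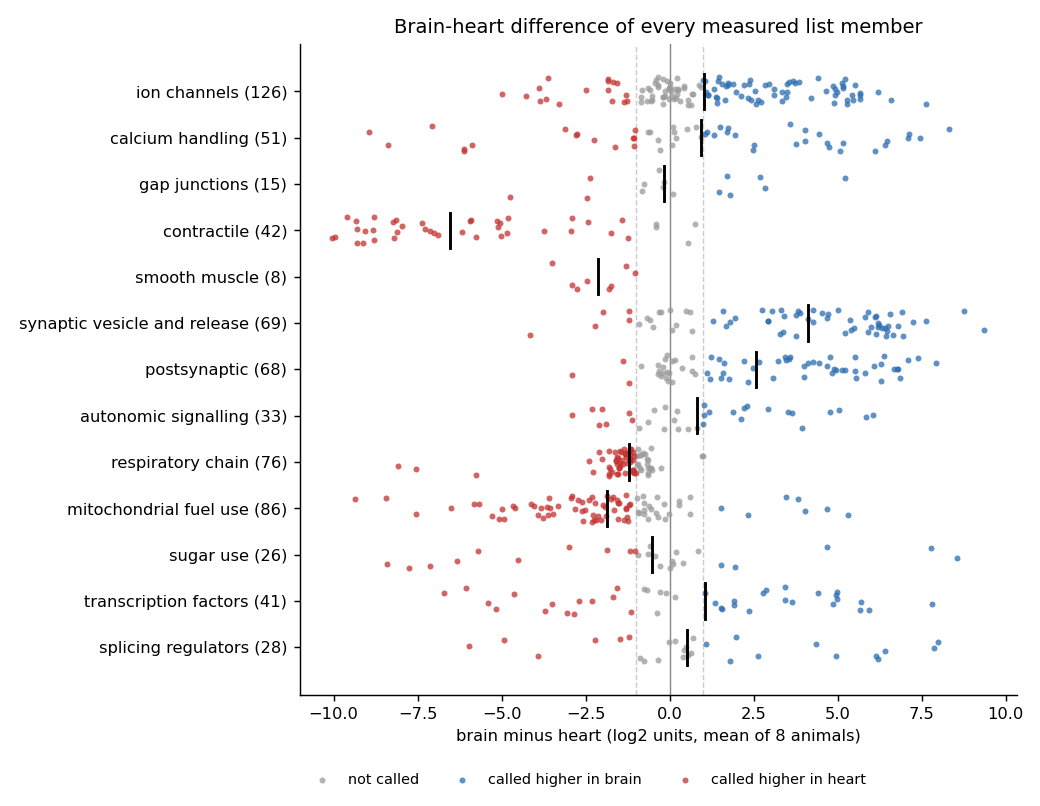
Brain minus heart difference in log2 units (x axis, mean of 8 animals) of every measured member of 13 gene lists (y axis, number measured in brackets). Blue points are called higher in brain, red higher in heart, grey neither, black bars mark list medians and dashed lines the 1-unit limit. The contractile list lies to the left with a median of -6.54, and the synaptic vesicle list to the right with a median of 4.12.

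The contractile apparatus lay almost wholly on the heart side. Of 42 measured genes of the sarcomere, the repeating contractile unit of striated muscle, 38 were called higher in heart and 0 in brain, with a median difference of -6.54. Of these, 9 of 10 thick filament genes, 12 of 14 thin filament genes and 17 of 18 genes of the Z-disc and titin were called. All 38 kept their call without animal 1264. The brain means of Myl2 (4.07), Tnni3 (3.08) and Csrp3 (3.37), a stretch-responsive Z-disc protein, lay at or under about the median signal. Cryab, a small heat shock protein that also protects glia, was an exception in level: the brains ranged from 9.79 to 10.55 around a median of 10.20, the hearts from 12.30 to 12.82 around 12.70. Its difference was -2.44 (SE 0.09, adjusted p = 1.36e-10).

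Some members were less sharply divided. Tpm3, a tropomyosin also made in non-muscle cells, was 0.55 higher in brain (SE 0.07, adjusted p = 1.09e-05), below the limit for a call. That is the value of the probe set used, and the 4 probe sets of Tpm3 ran from -0.49 to 0.55. Tnni1, the slow skeletal troponin I, was dim in both organs with means of 4.48 and 3.72. Tnnt1, the slow skeletal troponin T, ranged from 5.41 to 6.92 in brain and from 7.43 to 8.14 in heart, a difference of -1.24 (SE 0.16). Myl4, the atrial essential light chain, spread widely over the brains, from 5.43 through 7.07 to 8.06, and lay between 11.86 and 12.15 in heart. For Myl1, the fast skeletal light chain, the brain of 1264 was at 8.09 while the median brain was at 3.99. Its difference moved from -5.75 to -6.29 without that animal. All 8 measured smooth muscle genes were called higher in heart (median -2.13), among them Acta2 (-2.76) and Myh11 (-2.91), the actin and myosin of vessel walls. The mean of the smooth muscle and pericyte markers was 9.12 to 9.41 in heart and 6.59 to 6.99 in brain.

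The promoters of the heart-called contractile genes were examined as sequence, from 250 bases before to 50 after the gene start in RefSeq (GRCm38.p6). Of the 38 genes 32 had an entry. The CArG box, the element bound by serum response factor, was added to the motifs after the promoters had been looked at. On either strand it occurred in 8 of the 32 (25.0%): Acta1, Actc1, Fhl2, Ldb3, Myl3, Myl7, Myom1 and Nebl. It occurred in the promoters of 1.81% of all 27025 genes, in 1.37% of those of brain-called synaptic genes and in none of the respiratory chain. The 120 bases before the start of the 3 contractile genes with the largest differences among those with a match are shown, with the match in capitals. They lie at chr2:114052876-114052995 on the minus strand (Actc1), chr9:110763558-110763677 on the plus strand (Myl3) and chr11:5898783-5898902 on the minus strand (Myl7).
Actc1: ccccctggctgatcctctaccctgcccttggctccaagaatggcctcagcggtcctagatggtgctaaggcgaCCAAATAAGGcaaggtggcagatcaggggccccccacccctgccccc
Myl3: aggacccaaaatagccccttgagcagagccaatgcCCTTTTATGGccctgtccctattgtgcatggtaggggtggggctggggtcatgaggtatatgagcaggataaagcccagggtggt
Myl7: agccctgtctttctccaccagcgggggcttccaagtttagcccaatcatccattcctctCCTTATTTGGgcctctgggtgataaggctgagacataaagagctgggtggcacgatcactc

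The matches begin 47, 85 and 61 bases before the start. A match describes these letters only and shows neither binding nor use. The GATA factor site AGATAAG was found in 6.25% against 3.50% of all genes. The TATA box TATAAA was found in 21.9% against 15.67%. Neither GCGCATG, an NRF1 site, nor TCAAGGTCA, the site of estrogen-related receptors, was found in any of the 32.

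Ion channels divided mostly in favour of the brain. Of 126 measured channel genes, 64 were called higher in brain and 17 in heart, and 45 were not called, with a median of 1.03. The brain share of 50.8% lay above the 16% of all genes called in brain, and the heart share of 13.5% lay near the 16.5% called in heart. Sodium and calcium channel pores and voltage-gated potassium channels each had members called on both sides.

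Among sodium channel pores, 4 of 8 were called in brain and 1 in heart. Scn2a, the channel of axon initial segments, ranged in brain from 10.69 through 10.91 to 11.07 and in heart from 3.08 through 3.28 to 3.46. The difference was 7.62 (SE 0.07, adjusted p = 1.08e-15). Scn1a, the main channel of inhibitory neurons (6.21, SE 0.10), Scn8a (5.15, SE 0.07) and Scn3a (3.66, SE 0.13) followed, and their heart means were 3.52, 3.18 and 3.15. Scn7a, an atypical sodium sensor channel, went the other way, with brains between 3.56 and 4.27 and hearts between 6.81 and 7.36 (difference -3.30, SE 0.08). It was higher still in lung (mean 10.32). Of the beta subunits, which tune gating, Scn2b (5.66) and Scn3b (4.43) were called in brain. Scn4b was similar in both, with brains from 8.25 through 8.80 to 9.26 and hearts from 8.35 through 8.59 to 8.84. These ranges overlapped, and the difference of 0.20 (SE 0.11, adjusted p = 0.137) missed the threshold.

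Calcium channel pores split by type. The presynaptic N-type Cacna1b ranged from 8.22 to 8.57 in brain and from 3.37 to 3.63 in heart (difference 4.85, SE 0.06), and the P/Q-type Cacna1a differed by 3.34 (SE 0.13). The L-type pore of the heart, Cacna1c, ranged in heart from 8.99 through 9.36 to 9.82 and in brain from 5.14 through 5.76 to 5.96. Every heart exceeded every brain, by -3.69 on the brain minus heart scale (SE 0.10, 12.9-fold, adjusted p = 4.35e-12). The other L-type pore, Cacna1d, was 1.68 higher in brain (SE 0.08), and the skeletal muscle form Cacna1s was -1.56 with dim signals in both organs. The low-threshold T-type pores lay closer together. Cacna1g was 1.44 higher in brain (SE 0.14), and Cacna1h at -0.63 (SE 0.13) was not called. Among 13 accessory genes 8 were called in brain and 0 in heart, led by Cacna2d3 (5.50) and the beta subunit Cacnb4 (5.28). Cacna2d1, the alpha2delta subunit shared by both organs, had brain values of 9.28 to 9.93 and heart values of 9.86 to 10.11 (difference -0.35, SE 0.08).

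Voltage-gated potassium channels were called in brain for 16 of 27 genes and in heart for 5. The brain share was 59.3%, against 16% of all genes. The heart share was 18.5%, near the 16.5% of all genes. Kcna2 (5.67), Kcnc2 (5.65), Kcna1 (5.41) and Kcnc1 (5.21), which shape axonal conduction and fast firing, led the brain side. Kcnq1, the slow delayed rectifier, ranged in heart from 7.85 through 8.03 to 8.32 and in brain from 3.84 through 4.30 to 4.50 (difference -3.86, SE 0.07). Kcna5, an ultrarapid rectifier, was -3.63 (SE 0.23) and varied more among brains, from 3.59 to 5.87. Kcnh2, the rapid delayed rectifier known as ERG, stood between, with brains from 6.35 to 6.60 and hearts from 8.16 to 8.53 (difference -1.84, SE 0.07). Of 11 accessory genes 7 were called in brain, among them Kcnab2 (5.27). The 3 called in heart were Kcnip2 (-1.72), a partner of the transient outward current channels, Kcne1 (-1.82), the partner of Kcnq1, and Kcne4 (-1.29).

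Of 16 inward rectifier genes 5 were called in brain (31.25%) and 4 in heart (25%), against 16% and 16.5% of all genes. Kcnj5, a subunit of the channel through which acetylcholine slows the heart, ranged in heart from 8.04 through 8.42 to 8.67 and in brain from 3.22 through 3.41 to 3.51 (difference -5.0, SE 0.08, adjusted p = 8.05e-14). Its partner Kcnj3 was high in both, with brains from 7.25 to 7.73 and hearts from 8.17 to 8.76 (difference -0.87, SE 0.08), and Kcnj9, the neuronal relative, was 4.89 higher in brain. All 3 measured parts of ATP-sensitive channels named here were called in heart: Kcnj8, also a vascular subunit (-4.27), Abcc8 (-1.84) and Kcnj11 (-1.37). Kcnj10, the glial potassium channel, was 5.44 higher in brain. Among two-pore leak channels Kcnk1 was 6.60 higher in brain, and Kcnk3 was -3.88, with hearts from 10.12 to 10.63 and brains from 5.81 to 7.01. Of calcium- or sodium-activated channels 5 of 9 were called in brain and 0 in heart, with Kcnma1, the large-conductance channel, at 4.91. Hcn2, the single pacemaker channel gene measured, ranged from 7.02 to 7.52 in brain and from 4.92 to 6.49 in heart (difference 1.63, SE 0.13). Chloride (4 of 7) and TRP channels (5 of 14) had brain calls and no heart calls.

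**Figure D3:**
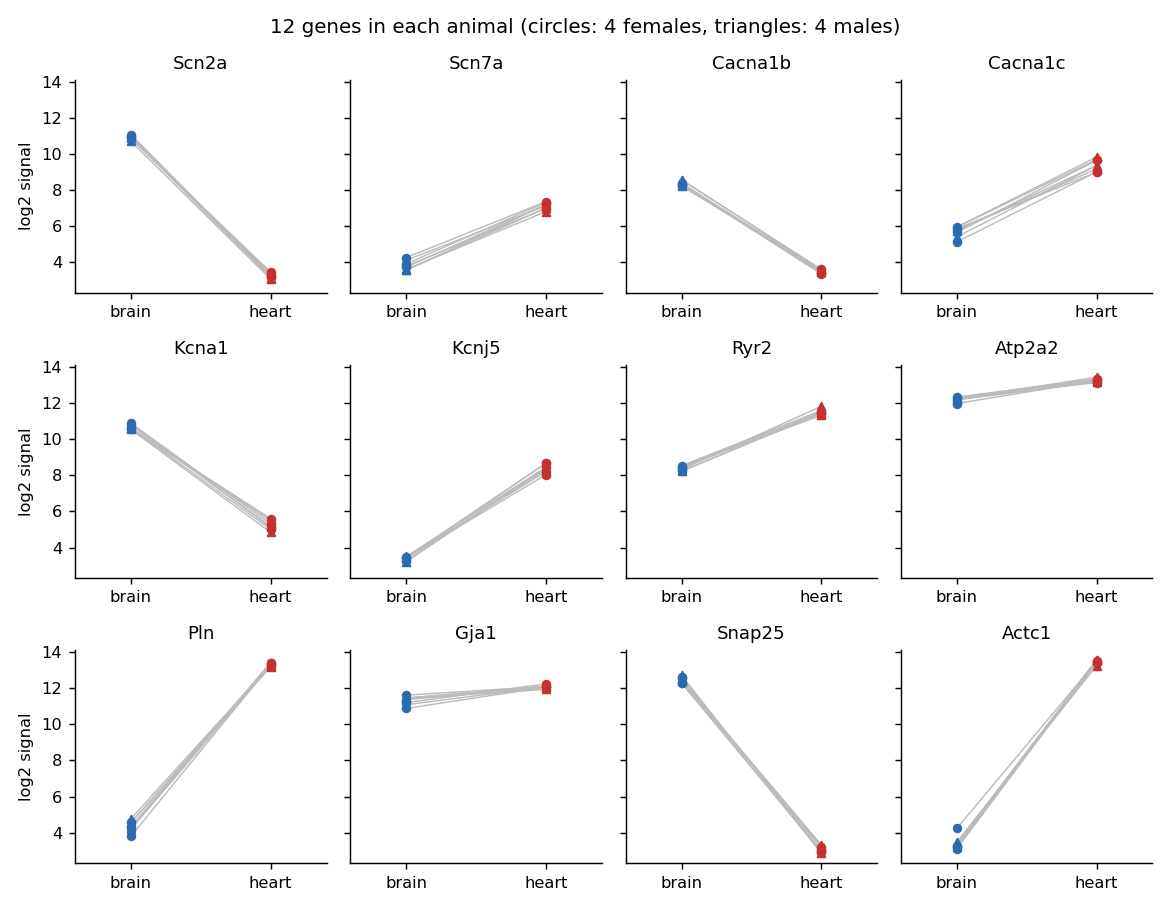
Log2 signal (y axis) of 12 genes in the brain (blue) and heart (red) of each of the 8 WT animals, joined by a line per animal. Circles are females and triangles males. Lines fall from brain to heart for Scn2a, Cacna1b, Kcna1 and Snap25 and rise for Scn7a, Cacna1c, Kcnj5, Ryr2, Pln and Actc1. They rise less steeply for Atp2a2 and Gja1, whose mean differences by the probe sets used are -1.05 and -0.77.

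Calcium handling genes were called in brain for 25 of 51 and in heart for 15. These are 49.0% and 29.4%, against 16% and 16.5% of all genes. Among genes above the median signal, as 50 of the 51 were, the shares were 22.8% and 23.4%. Of 12 genes of the sarcoplasmic reticulum, the calcium store of muscle, 7 were called in heart and 2 in brain. Among the 7 is Asph, named after its values were seen, whose probe sets ran from -4.54 to 5.04 with calls both ways. Of 15 calcium sensors and kinases 13 were called in brain and 2 in heart. The roles were not tested against each other. Ryr2, the calcium release channel, was bright in both organs. Its hearts ranged from 11.31 through 11.46 to 11.81 and its brains from 8.21 through 8.40 to 8.53, without overlap (difference -3.12, SE 0.07, 8.71-fold, adjusted p = 1.66e-12). Ryr1 (0.78) and Ryr3 (0.13) were not called and were dim.

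Pln, phospholamban, the brake on the calcium pump, ranged in heart from 13.17 to 13.41 and in brain from 3.81 to 4.78. Its difference of -8.95 (SE 0.10) contrasts with that of the pump it regulates. Atp2a2, the SERCA pump, was bright in both organs, from 11.96 through 12.21 to 12.32 in brain and from 13.12 through 13.26 to 13.42 in heart (difference -1.05, SE 0.06). That is the value of the probe set used, and the 3 probe sets of Atp2a2 ran from -2.42 to -0.79. Store proteins of the heart were Hrc (-8.39), Srl (-7.08), the calcium buffer Casq2 (-6.13) and Jph2 (-6.11), a junctophilin that ties the store to the surface membrane. The neuronal junctophilin Jph3 was 5.17 higher in brain, and Jph1 at -0.36 (SE 0.13) had overlapping ranges. The plasma membrane pumps Atp2b2 (7.08) and Atp2b1 (2.50) were called in brain. Of the exchangers, Slc8a3 was 4.75 higher in brain. Slc8a1 was 1.33 higher in brain by the probe set used, but its probe sets ran from -1.58 to 4.63 and included calls both ways. Calb1, a calcium buffer of Purkinje and other neurons, was 8.32 higher in brain, and S100a1, a calcium sensor of muscle, was -2.77.

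The 4 CaM kinase II genes divided in the same animals. Camk2b (4.67, SE 0.07), Camk2a (4.04, SE 0.14) and Camk2g (1.72, SE 0.06) were called in brain. Camk2d, the main cardiac form, was -1.08 (SE 0.09), with brains from 6.31 to 7.60 and hearts from 7.71 to 8.23. That is the value of the probe set used. The 4 probe sets of Camk2d ran from -1.08 to 0.26, and 2 were called in heart. Of 15 gap junction genes 6 were called in brain (40%, against 16% of all genes) and 3 in heart (20%, near the 16.5% of all genes). Gja1, connexin 43, which couples both astrocytes and ventricular muscle cells, lay between 10.87 and 11.61 in brain and between 11.93 and 12.23 in heart. The difference of -0.77 (SE 0.09) was under the limit. That is the value of the probe set used. The 5 probe sets of Gja1 ran from -1.69 to -0.77, and 2 were called in heart. Gjb6, an astrocyte connexin, was 5.21 higher in brain, while Gja3 (-4.74), Gjc1 (-2.46), the connexin 45 of conduction tissue, and Gja4 (-2.37), a connexin of arterial endothelium, were called in heart.

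Synaptic genes lay mostly on the brain side. Of 69 genes of vesicles and release, 52 were called in brain and 5 in heart, with a median of 4.12. Vesicle proteins were called in brain in 13 of 15 cases, led by the small GTPase Rab3c (7.64), Sv2b (6.78), Syn2, a synapsin (6.51), and Slc17a6, the vesicular glutamate transporter of deeper brain regions (6.41). All but 1 of 11 calcium sensors of release were called in brain. Active zone scaffolds Erc2 (6.65), Nrxn3 (6.57), Pclo (6.44) and Rims1 (6.33) had heart means from 3.21 to 3.89. Recycling genes were led by Sh3gl2, endophilin A1, with brains from 11.05 through 11.17 to 11.40 and hearts from 3.94 through 4.25 to 4.57 (difference 6.94, SE 0.09).

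There were 5 heart calls among the release genes. Vamp5, a SNARE of muscle, ranged in heart from 8.69 to 9.24 and in brain from 4.50 to 5.21 (difference -4.17, SE 0.09). Vamp8 (-2.22), of endosomes and secretory granules, and Vamp3 (-1.22), of general recycling, had the same direction. Syngr1 (-1.99) and Itsn1 (-1.20) complete the 5, but the probe sets of both disagreed. Those of Syngr1 ran from -1.99 to 4.70 and those of Itsn1 from -1.20 to 4.45. The mean over the probe sets was higher in brain for both, 0.97 and 0.73.

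Postsynaptic genes were called in brain for 45 of 68 and in heart for 3, with a median of 2.57. Nearly all glutamate receptor genes were called in brain (19 of 20), with the AMPA receptor subunits Gria2 (7.92) and Gria1 (7.39) in front. For Gria2 the brains ranged from 10.64 through 10.98 to 11.32 and the hearts from 2.93 through 3.06 to 3.27. GABA and glycine receptors followed with 13 of 15, among them Gabrb1 (7.08), Glrb (6.86) and Gabrb2 (6.76). Of 15 acetylcholine receptor genes only 6 had a mean above the median signal in either organ, against 19 of 20 and 13 of 15 in the groups before. Of the 15, 1 was called in brain, Chrna4 (2.49), a subunit of the main nicotinic receptor of the brain, and 1 in heart, Rapsn (-2.90), which clusters the receptor of muscle endplates. Scaffolds were called in brain for 12 of 18, with Dlgap1 at 6.07. Homer2 (-1.39), a scaffold that also binds calcium channels of muscle, and Gphn (-1.23), gephyrin, which also serves molybdenum cofactor synthesis, were the 2 scaffolds called in heart.

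Promoters of the brain-called synaptic genes, 73 with an entry among 97, differed in base composition from those of the contractile genes. The median GC content was 62.7% against 55.5% in the contractile group and 52.7% over all promoters, and the median number of CpG pairs was 17 against 6 and 7. TATAAA was found in 6.85% (15.67% of all genes), GCGCATG in 8.22% (4.41%) and TGACGTCA, the cyclic AMP response element (CRE), in 2.74% (2.03%). The 120 bases before the start are shown for the 3 synaptic genes with the largest differences among those with a match in that stretch, capitals marking the CRE in Sh3gl2 and the TATA box, on the reverse strand in Sv2b, in the others. They lie at chr4:85205336-85205455 on the plus strand (Sh3gl2), chr7:75309263-75309382 on the minus strand (Sv2b) and chr11:42420320-42420439 on the plus strand (Gabrb2). RefSeq lists 4 promoters for Sv2b and 3 for Gabrb2, and 1 of each is shown.
Sh3gl2: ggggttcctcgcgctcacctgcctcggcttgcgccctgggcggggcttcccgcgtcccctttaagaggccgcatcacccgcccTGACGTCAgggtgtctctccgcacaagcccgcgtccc
Sv2b: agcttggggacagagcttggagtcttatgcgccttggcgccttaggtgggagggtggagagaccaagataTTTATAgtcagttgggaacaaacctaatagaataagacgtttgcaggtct
Gabrb2: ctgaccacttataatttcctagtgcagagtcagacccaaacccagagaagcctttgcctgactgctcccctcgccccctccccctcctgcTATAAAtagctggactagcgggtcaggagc

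Of 33 genes that carry autonomic signals 16 were called in brain (48.5%) and 7 in heart (21.2%, near the 16.5% of all genes). Cyclic AMP is made by adenylyl cyclases, and the isoforms separated: Adcy1, a calcium-activated neuronal form, was 6.05 higher in brain (SE 0.14), and Adcy6, a main cardiac form, was -2.89 (SE 0.07), with hearts from 9.49 to 9.65 and brains from 6.47 to 6.88. The other main cardiac cyclase, Adcy5, ranged from 7.80 to 9.26 in brain and from 7.41 to 7.90 in heart. Its difference of 1.01 sat on the limit of a call and was 0.98 without 1264. Among phosphodiesterases, which break cyclic nucleotides down, Pde3a (-2.32) and Pde1c (-1.90) were called in heart, while Pde4d had overlapping ranges and a difference of 0.11 (SE 0.07, adjusted p = 0.162). Adra1b, an alpha-1 adrenergic receptor, was -2.11 and the muscarinic receptor Chrm1 was 3.94. The beta adrenergic receptors were not analysed here.

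Mitochondrial genes went to the heart, but by modest steps in the respiratory chain and large ones in fat oxidation. Of 76 subunits of the chain, 53 were called in heart and 0 in brain, with a median of -1.21. The differences were narrow: complex I ran from -2.0 to -0.67 (28 of 33 called), complex III with cytochrome c from -2.11 to -1.27 (all 9 called), and ATP synthase from -2.42 to -0.64 (10 of 15 called). Many members thus sat near the 1-unit limit. After each array was centred on its median the count was 62, and after a further quantile normalization it was 40 with 2 called in brain. Ndufs6, a complex I subunit, ranged in brain from 9.81 through 10.07 to 10.24 and in heart from 11.94 through 12.07 to 12.12 (difference -2.0, SE 0.07). Atp5g1, a subunit of the proton ring of ATP synthase, had the largest difference outside complex IV, -2.42 (SE 0.06, 5.34-fold, adjusted p = 4.93e-12). That is the value of the probe set used. The other probe set of Atp5g1 was at -0.01 and was not called.

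Of the 15 genes of complex IV, cytochrome c oxidase, 3 (20%) were called in heart, near the 16.5% of all genes, with a median of -0.64. The difference between complexes was not tested. The 3 were the muscle forms of paired subunits. Cox8b ranged in heart from 12.49 through 12.71 to 12.86 and in brain from 3.89 through 4.49 to 5.57 (difference -8.10, SE 0.14). Its general counterpart Cox8a was 0.99 higher in brain (SE 0.06). Cox7a1 differed by -7.55 (SE 0.09) and Cox7a2 by -0.57 (SE 0.06). Cox6a2 differed by -5.76 (SE 0.13), with brains from 6.29 to 7.69, and Cox6a1 was 0.97 higher in brain (SE 0.06). Cox8a and Cox6a1 were the members with a positive difference, and for both every brain lay above every heart. The calls in complex IV depend on the probe set used. The other probe set of Cox6a1 was at 1.21 and called in brain. Cox5b and Cox6c, named after their values were seen, were not called. Each had 1 other probe set called in heart, at -1.06 and -1.04.

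**Figure D4:**
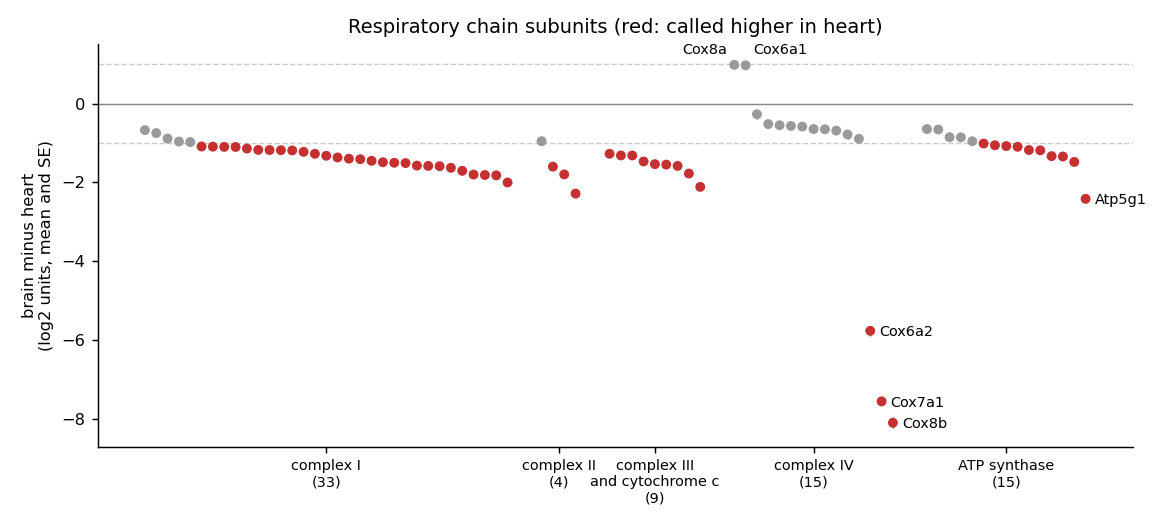
Brain minus heart difference (y axis, log2 units, mean and SE over 8 animals) of 76 respiratory chain subunits, grouped by complex and sorted within it. Red points are called higher in heart, grey points are not called, and dashed lines mark 1 unit. Complexes I and III and ATP synthase form a narrow band between -2.42 and -0.64, and complex IV holds the muscle forms Cox6a2, Cox7a1 and Cox8b far below it and Cox6a1 and Cox8a above 0.

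Of the 53 heart-called respiratory genes 44 had a promoter entry. GCGCATG, the NRF1 site, was found in 9 of them (20.5%) against 4.41% of all genes, and TGACGTCA in 5 (11.4%) against 2.03%. TCAAGGTCA was found in 2.27% against 0.466%. The median number of CpG pairs was 20. Shown are 120 bases before the start for the 3 genes with the largest differences among those with a match there, with the NRF1 site (reverse strand, Sdhb and Cycs) or the CRE (Uqcrfs1) in capitals. They lie at chr4:140961151-140961270 on the plus strand (Sdhb, an iron-sulphur subunit of complex II, difference -1.60), chr6:50566570-50566689 on the minus strand (Cycs, cytochrome c, -1.58) and chr13:30545317-30545436 on the minus strand (Uqcrfs1, the Rieske protein of complex III, -1.55).
Sdhb: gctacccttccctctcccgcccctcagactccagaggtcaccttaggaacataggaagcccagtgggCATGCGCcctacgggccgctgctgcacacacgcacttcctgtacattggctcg
Cycs: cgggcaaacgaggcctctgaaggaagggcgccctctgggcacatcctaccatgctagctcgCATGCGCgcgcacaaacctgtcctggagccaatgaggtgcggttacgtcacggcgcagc
Uqcrfs1: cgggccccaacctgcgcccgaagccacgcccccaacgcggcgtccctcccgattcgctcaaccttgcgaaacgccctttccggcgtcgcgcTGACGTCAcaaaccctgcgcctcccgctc

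Fuel use separated the organs further. Of 86 genes, 59 were called in heart and 7 in brain, with a median of -1.87. Fatty acid oxidation lay on the heart side, with 24 of 26 in heart and a median of -3.59. Cd36, the fatty acid transporter, ranged in heart from 12.05 to 12.24 and in brain from 3.35 to 4.17 (difference -8.44, SE 0.10), and Lpl, which releases fatty acids from lipoproteins, was -5.67 (SE 0.13). Both are also made by fat or endothelial cells, whose markers were higher in the hearts, and the part of those cells was not tested. The carnitine palmitoyltransferases, the entry step of mitochondrial fat oxidation, split by isoform. Cpt1b, the muscle form, was -7.54 (SE 0.10). Cpt1a, the liver form, was -1.49 (SE 0.08). Cpt1c, the neuronal form, was 4.67 higher in brain (SE 0.11). Acsl6, which activates long-chain fatty acids in brain, was the other gene of this group called in brain (4.01).

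Of 25 genes of the TCA cycle and pyruvate entry, 19 were called in heart. Pdk4, the kinase that shuts off pyruvate dehydrogenase during fat use, ranged in heart from 10.14 through 10.85 to 11.48 and in brain from 4.76 through 5.05 to 5.16 (difference -5.82, SE 0.13), and Pdk3 was 2.32 higher in brain. Idh2 (-4.98) and all 3 ketone body genes, Slc16a1 (-2.27), Acat1 (-2.20) and Oxct1 (-1.26), were called in heart. Mitochondrial creatine kinases took opposite sides. Ckmt1 was 5.31 higher in brain (SE 0.08) and Ckmt2 was -9.36 (SE 0.09). Of the ADP/ATP carriers, Slc25a4 was -0.90 (SE 0.06) and Slc25a5 was -0.03 (SE 0.05, adjusted p = 0.651). The other probe set of Slc25a4 was at -1.89 and called in heart. The regulators Perm1 (-6.52), Ppara (-3.76), Esrrb (-2.91) and Esrra (-1.68), which drive muscle and fat oxidation genes, were called in heart. The fusion gene Opa1 (-0.15) and the fission gene Dnm1l (0.29) were not called by the probe sets used. The 3 probe sets of Opa1 ran from -2.54 to -0.15, with 1 called in heart, and those of Dnm1l from 0.05 to 0.97.

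In sugar use some isoforms took opposite sides, while some enzymes of the core of glycolysis were not called. Of 26 genes, 5 were called in brain (19.2%, near the 16% of all genes) and 10 in heart (38.5%, against 16.5%). Gapdh (0.07, SE 0.05), Pgk1 (0.09, SE 0.06) and Tpi1 (0.00, SE 0.06), single enzymes of the core of glycolysis, had overlapping ranges and missed the threshold. The enolases, the next step but 1, diverged. Eno2, the neuronal form, ranged in brain from 11.06 to 11.46 and in heart from 3.27 to 3.79 (difference 7.78, SE 0.09). Eno3, the muscle form, ranged in brain from 4.45 to 5.96 and in heart from 12.53 to 12.74 (difference -7.77, SE 0.14). Pgam2, the muscle phosphoglycerate mutase, was -7.12. Glucose transporters divided likewise, with the neuronal Slc2a3 (4.67) and the blood-brain barrier Slc2a1 (1.95) in brain and the insulin-responsive Slc2a4 (-6.33) in heart. The highest brain values of Eno3 (5.96), Pgam2 (6.05) and Ckm, the muscle creatine kinase (7.79), were all in female 1264, the brain library with skeletal muscle markers. The difference of Ckm was -8.40 with that animal and -8.90 without it.

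Transcription factors were listed by the organ they are known from. Of 19 factors listed for the heart 13 were called there, with Tbx20 (-6.72), Gata6 (-6.05), Myocd (-5.41) and Nkx2-5 (-5.16) in front. Tbx20 ranged from 9.44 to 9.90 in heart and from 2.78 to 3.07 in brain. Of 22 factors listed for the brain 20 were called in brain, among them Olig1, of the oligodendrocyte lineage (7.80), Pou3f3 (5.93), Neurod1 (5.70) and Sox2 (5.66). Neurod1 varied among the brains, from 6.86 through 9.63 to 10.37. The factor called in heart was Rest, a repressor of neuronal genes, with hearts from 7.44 through 7.97 to 8.23 and brains from 5.06 through 5.66 to 6.02 (difference -2.32, SE 0.10). The MEF2 factors, used by both neurons and muscle, did not split alike. Mef2c was 1.91 higher in brain (SE 0.11), Mef2a was -0.76 (SE 0.05) and Mef2d was 0.17 (SE 0.06). The 2 probe sets of Mef2d differed in sign, at -0.74 and 0.17.

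Splicing regulators, which set tissue-specific exons, were called in brain for 11 of 28 (39.3%) and in heart for 6 (21.4%, near the 16.5% of all genes). One of the 6, Elavl1, named after its values were seen, has probe sets from -1.48 to 2.68 with calls both ways. Rbfox3, known as NeuN, was 7.98 higher in brain, Celf4 7.87 and Elavl2 6.41. Rbm20, the regulator of titin splicing, ranged in heart from 10.10 to 10.52 and in brain from 3.99 to 4.77 (difference -5.98, SE 0.09), and Rbm38 (-4.92), Rbm24 (-3.91) and Qk (-2.21) followed. Rbfox1 was bright in both, with brains from 10.69 to 11.21 and hearts from 8.82 to 9.48 (difference 1.81, SE 0.10). Rbfox2 had overlapping ranges and a difference of 0.49 (SE 0.10).

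The second question was what both organs hold against liver, kidney and lung. A gene was counted as shared when brain and heart each differed from each of the 3 other organs in the same direction, by at least 1 log2 unit and with an adjusted p under 0.05. The 6 contrasts use the same 40 arrays, so the counts describe the rule. By it 195 genes (1.14%) were shared high and 244 (1.43%) shared low. Of the shared high genes 70 were also called in brain against heart and 29 in heart, and 96 were called in neither. In 182 of the 195, which were picked on these same arrays, every brain and heart lay above every liver, kidney and lung. The lungs carried cardiac transcripts, with mean signals of 11.33 for Actc1 and 8.88 for Tnni3. Their part in the counts was not tested. Without lung the rule has fewer contrasts to meet, and the counts were 474 and 703. Without animal 903 they were 194 and 252, of which 186 and 238 were the same genes.

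The shared high genes with the widest margins had different known roles. Fgf13, an intracellular partner of sodium channels, had medians of 10.56 in brain and 10.07 in heart, against 3.28 in liver, 3.36 in kidney and 3.75 in lung. The smallest of its 6 differences was 6.28 (largest adjusted p = 2.1e-41). Eef1a2, a translation elongation factor of neurons and striated muscle, had medians of 11.68 and 12.05 against 5.30, 4.39 and 5.82, with a smallest difference of 5.84. Cap2, an actin regulator, followed with 4.98 and Gpr22, an orphan receptor, with 4.67. Ptgds, a prostaglandin synthase (4.60), Prune2 (4.44), Rbfox1 (4.40), Ndrg4 (4.35), Efnb3, an ephrin (4.21), Ank2, the ankyrin that anchors channels and transporters (4.15), and Fndc5, the precursor of irisin (4.12), came next. Between brain and heart Cap2 differed by -0.09 (SE 0.11, adjusted p = 0.488), whereas Fndc5 was -1.83.

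Of the listed ion channels 13 were shared high: the sodium channel subunit Scn4b, the calcium channel genes Cacna1g, Cacna1h, Cacna2d1 and Cacna2d2, and the potassium channel genes Kcna1, Kcnd3, Kcnh2, Kcnip2, Kcnj3, Kcnj12 and Abcc8, with the pacemaker gene Hcn2. Kcnj3 had the widest margin, 3.97, with medians of 7.46 in brain and 8.28 in heart against 3.04 in liver, 2.93 in kidney and 3.41 in lung. Kcnip2 was next with 3.79, and its kidney values ran from 3.93 to 6.18. Both T-type pores met the rule, Cacna1h by 2.10 and Cacna1g by 2.05. Scn4b met it narrowly, by 1.03, with a kidney median of 7.46.

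Calcium release and contraction contributed Ryr2 (smallest difference 2.60), Jph1 (1.77) and Tnnt1 (1.20), and the kinase Camk2a contributed 1.89. The lungs ranged from 4.23 to 7.21 for Ryr2. Gja1 met the rule by 1.08, with a lung median of 10.18. From the synaptic lists came Snap91, a clathrin assembly protein (2.58), Homer1 (2.17), Rab3a (1.88), Syt7 (1.22) and, with the reservation on its probe sets, Syngr1 (1.18). Of these Homer1 lay closest in both organs, with brains from 9.58 to 10.40 and hearts from 9.07 to 9.58. Cyclic nucleotide enzymes gave 5 members, with Pde1c (2.35) and Adcy5 (2.04) in front.

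Of the 76 respiratory chain genes 0 were shared high, near the 1.14% of all genes. The mitochondrial members were Acsl6 (2.59), Pdp1, the phosphatase that switches pyruvate dehydrogenase on (1.53), and the dynamics genes Dnm1l (1.29) and Opa1 (1.16). Of glycolysis, Pfkm, the muscle form of phosphofructokinase, had a smallest difference of 2.48 and Pkm, pyruvate kinase M, 1.51. Pkm medians were 11.55 in brain and 11.39 in heart against 6.15 in liver, 9.85 in kidney and 9.71 in lung. Among regulators Rbfox1 had a smallest difference of 4.40, Mef2c 1.32, Khdrbs3 1.22 and Rbfox2 1.09. Mef2c was the single heart-listed factor that met the rule.

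**Figure D5:**
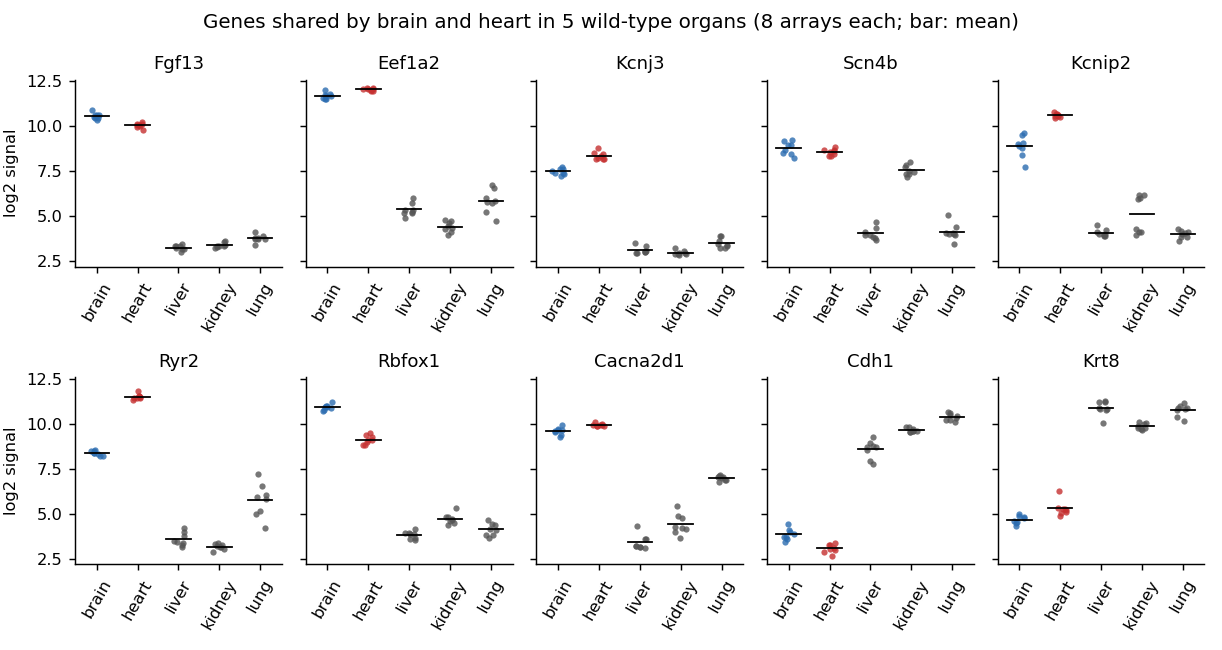
Log2 signal (y axis) of 10 shared genes in the 8 arrays of each of 5 WT organs (x axis), with a bar at each mean. Fgf13, Eef1a2, Kcnj3, Scn4b, Kcnip2, Ryr2, Rbfox1 and Cacna2d1 are higher in brain (blue) and heart (red) than in the other organs (grey), and Cdh1 and Krt8 are lower. Scn4b in kidney, with a median of 7.46, lies nearest to the shared level.

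Among the shared low genes with the widest margins was Cdh1, E-cadherin, the adhesion protein of epithelial sheets. It had medians of 3.81 in brain and 3.10 in heart against 8.74 in liver, 9.60 in kidney and 10.39 in lung, and its smallest difference in size was -4.73. Krt8, a keratin of simple epithelia (-4.57), Met, the receptor of hepatocyte growth factor (-4.51), and Tmem30b (-5.17) were alike. Cyp2a5, a cytochrome P450, had the largest margin, -5.85. Its hearts ranged from 3.49 through 3.84 to 6.81, and Pigr, which carries antibodies across epithelia (-4.55), had hearts from 3.27 through 3.45 to 7.74. Both genes are bright in liver, and heart 903 held liver markers. Without 903 the brain minus heart difference of Pigr went from -0.66 to -0.10 and that of Cyp2a5 from -0.58 to -0.20. Of the listed genes 5 were shared low: the leak channel Kcnk5, the fusion genes Stxbp2 and Vamp8, and the splicing regulators Esrp2, of epithelia, and Ptbp1. Ptbp1, which holds back neuronal and muscle exons, had medians of 7.42 in brain and 8.64 in heart against 9.81 in liver, 9.94 in kidney and 10.39 in lung. It also differed between brain and heart, by -1.22 (SE 0.08).

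The brain-heart division was then set beside that in the 8 Es-1 KO animals, also untreated, 4 females and 4 males. Es-1 is encoded by Ces1c, and its liver signal was read first. It lay between 9.70 and 10.17 in 7 KO livers and at 12.04 in the library labelled KO male 952, against 12.11 to 12.63 in the WT livers. In the libraries labelled KO 2815 genes were called in brain and 2816 in heart. Of the WT calls 2673 in brain (97.4%) and 2679 in heart (94.9%) were called the same way in KO, and 0 the opposite way. Snap25 was 9.22 in KO and Actc1 -10.08. A test of the difference between genotypes over all genes called 1 gene (0.00585%), and 773 had an unadjusted p under 0.05. That gene, Lrrc27, had a mean brain minus heart difference of -3.19 in KO (range -3.82 to -2.45) and of -0.98 in WT (-2.27 to -0.24), a change of -2.21 (SE 0.27, adjusted p = 0.00309). Without 952 the count was still 1, and with a variance per gene it was 0.

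Between the sexes 3 genes (0.0175%) differed in their brain-heart difference, with 4 WT animals of each, and 1023 had an unadjusted p under 0.05. Eif2s3y, a Y-linked gene, differed by -1.90 (SE 0.16, adjusted p = 0.0035) and Xist, the RNA that silences an X chromosome, by -1.72 (SE 0.21, adjusted p = 0.047). The mean brain minus heart difference of Xist was -0.92 in males and 0.80 in females. Edil3, an extracellular matrix gene made by oligodendrocytes among others, was the autosomal one. It was higher in brain by 5.67 in males (range 5.44 to 5.89) and by 4.41 in females (4.31 to 4.52), a difference of 1.26 (SE 0.15, adjusted p = 0.0382). The count fell to 1 without 876, 936, 901 or 903, and to 0 with a variance per gene or with averaged probe sets.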

How the data were processed

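Total RNA of 5 organs was labelled and read on Affymetrix arrays of the HT MG-430 PM design. The deposited values are log2 signals per probe set, and RMA, Affymetrix Expression Console and Partek are named in the submitters' processing notes, without versions. Whether the organs were normalized together, and the scan dates and slides, are not given in the sources used here. Precision is limited by how many arrays each group has.

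Of 45141 probe sets, 28898 have 1 gene symbol in the platform annotation, 551 have several and 15588 have none. Control probe sets numbered 104. Symbols were updated by gene ID for 28689 probe sets. Each of 17097 genes was represented by its brightest probe set, judged by the mean across the 80 arrays, and 7180 genes had a choice.

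Brain and heart were compared with limma 3.58.1 in R 4.3.3, with the animal as a fixed block and Benjamini-Hochberg adjustment over all genes. The 40 WT arrays of the 5 organs were fitted together with the animal as a random block (estimated correlation 0.0688). Genotype and sex were tested as differences between the animals' brain minus heart differences. The pairing comes from the animal numbers in the titles. Deviations of brain and heart of the same animal from their group means had a median correlation of 0.118 (0.011 to 0.191 over 8 pairs), against -0.0097 between different animals. Without the replicate block 2743 genes were called in brain and 2819 in heart. The script was tested on simulated data. Promoters on chromosome 18 were not used.

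The comparison, the gene lists and the markers were chosen with earlier results of these data known. Lists are described by counts and medians, with no test of the list. Genes were named by a rule: the 12 largest in each direction, up to 4 called members per role and direction, up to 3 least different members, whole small families, the widest-margin shared genes with all listed shared genes, and the leading genes of the genotype and sex tests. Myh4, Ttr, Apoa1 and the members listed for the CArG box were named after their values were seen. The KO heart of female 994 was placed by its title, since its tissue field says lung. Alternatives changed the probe set rule, normalization, variance model, block, difference limit, sex and animals included. Myh6, Itpr1, Hcn4, Grin1, Adrb1 and Chrm2 were among the listed genes not analysed here.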

Additional observations from a re-analysis of the deposited data

Results flagged for a closer look

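In 60 list means, 30 lists in each organ, the highest or lowest of 8 animals was compared with its nearest neighbour by Dixon's criterion, which chance meets in about 1 in 20 groups. Female 1264 had the highest brain mean of the skeletal muscle markers (6.75, next 3.65), the contractile list (5.41, next 5.04) and the sugar use list (9.23, next 8.98). Male 903 had the highest heart mean of the hepatocyte markers (10.37, next 5.94) and of the choroid plexus markers (6.61, next 5.55). Ttr is on both lists, and its highest heart value was 11.06, so these means are not separate results. Female 876 had the lowest blood marker mean in brain (5.78, next 7.09) and in heart (7.90, next 9.48). The respiratory chain mean of brain 1265 was the lowest (10.57, next 10.62), and the oligodendrocyte mean of heart 902 was the highest (4.67, next 4.35).

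The brain minus heart difference of Lrrc27 differed between genotypes by -2.21 (adjusted p = 0.00309). Between the sexes the difference of Eif2s3y differed by -1.90, that of Xist by -1.72 and that of Edil3 by 1.26, all from limma over all genes.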

How the results depend on the processing

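The counts of brain and heart calls depended on the difference required: 5265 and 7086 with no minimum, 1559 and 1241 at 2 log2 units or more. Using every named probe set gave 4426 and 4191. Leaving out 1 animal gave 2734 to 2763 and 2806 to 2847 in WT, and 2802 to 2829 and 2792 to 2838 in KO. Centring each array on its median moved the median difference from -0.11 to -0.33 and the split to 2409 and 3454, 41.1% in brain against 49.3%. Differences near 0, such as those of Gapdh, Pgk1, Scn4b, Pkm and Mef2d, change sign under such a shift. The replicate block changed the totals little (2743 and 2819 without it). Syngr1 (0.97) and Itsn1 (0.73) reversed when the probe sets of a gene were averaged, since their probe sets disagree. Shared high and low genes numbered 474 and 703 without lung, where fewer contrasts are required, 776 and 888 with no minimum, 66 and 63 at 2 log2 units, and 192 to 198 and 238 to 252 with 1 animal left out. The genotype test called 0 genes with a variance per gene and 1 to 2 with 1 animal left out (2 without 962 or 964). The sex test called 0 with a variance per gene or with averaged probe sets, and 1 to 3 with 1 animal left out. Of the 413 named genes, 186 changed their call under at least 1 setting. Dim signals limit the folds, and age, scan batch and organ region could not be examined.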

Other observations

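Kcnip2 varied by sex in the WT kidney, where the females lay between 5.95 and 6.18 and the males between 3.93 and 4.31. This was seen while reading the values and was not tested. In the WT hearts Ces1c was highest in male 903 (8.51), the library with hepatocyte markers, and the next heart was at 3.98.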
